A study of Mus musculus with 45 samples.

Results

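The transcripts described here are those of the mouse mitochondrial genome: every row of both deposited expression tables whose gene symbol begins with mt-. The rule found 37 of the 47729 genes in each table. These were 13 protein-coding genes, each called a messenger RNA (mRNA) here, 2 ribosomal RNAs (rRNAs) and 22 transfer RNAs (tRNAs). The tumours came from CT26, a colon carcinoma line of BALB/c mice, grown under the skin of BALB/c HuGEMM mice that carry human PD-1 and human TIGIT in place of the mouse genes. All 45 tumours were therefore from 1 cell line and 1 host genotype, and the RNA was taken from whole tumour tissue.

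The first experiment, T2106, had 18 tumours in 6 groups of 3: vehicle (saline), serplulimab at 10 mg/kg, HLX53 at 10 mg/kg, pembrolizumab with tiragolumab at 10 mg/kg each, and serplulimab at 10 mg/kg with HLX53 at either 5 or 10 mg/kg. The second, T2215, had 27 tumours in 9 groups of 3: vehicle, serplulimab, pembrolizumab, HLX53 and tiragolumab alone, and the 4 pairs that join 1 of the first 2 agents to 1 of the last 2, each agent at 10 mg/kg. Serplulimab and pembrolizumab are antibodies to PD-1, and tiragolumab and HLX53 are directed at TIGIT; both targets are inhibitory receptors of T cells. Levels are in FPKM, a fragment count scaled by transcript length and library total. The FPKM of a library still summed to between 678636 and 911201, so comparisons between libraries depend on the scaling. Between kinds of RNA they also depend on how well each kind was recovered, which FPKM do not show.

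Mitochondrial DNA is a small circle that is copied into long RNAs from both strands by a polymerase of its own. The tRNAs punctuate these RNAs and are cut out to free the mRNAs and rRNAs. The rRNAs build the mitochondrial ribosome, which translates the transcripts of the 13 protein-coding genes into core subunits of respiratory complexes I, III, IV and V. All other subunits, and all proteins that transcribe and process mitochondrial RNA, are encoded in the nucleus.

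In the GRCm38 annotation, 12 of the 13 mRNAs and both rRNAs lie on 1 strand of the mitochondrial chromosome. mt-Rnr1, the small rRNA, spans positions 70 to 1024, and mt-Rnr2, the large rRNA, spans 1094 to 2675. mt-Nd6, a complex I subunit at 13552 to 14070, is the single mRNA on the opposite strand, and 43.7% of its bases are T and 5.97% are C. In the other 12 mRNAs, T makes up 27.4 to 32.8% and C 22.1 to 29.97%.

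Several mRNAs share bases with a neighbour, and the shared stretches are shown because a read from them cannot be given to 1 gene by its sequence alone. The last 43 bases of mt-Atp8 are the first 43 bases of mt-Atp6, and these genes encode complex V subunits. In capitals are the shared bases:
mt-Atp8: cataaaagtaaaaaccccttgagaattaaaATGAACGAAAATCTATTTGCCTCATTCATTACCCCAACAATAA
mt-Atp6: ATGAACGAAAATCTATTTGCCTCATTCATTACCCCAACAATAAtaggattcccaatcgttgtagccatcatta

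The ends of mt-Nd5 and mt-Nd6 meet on opposite strands, where 14 base pairs belong to both. These are in capitals below, each gene written 5′ to 3′ on its own strand:
mt-Nd5: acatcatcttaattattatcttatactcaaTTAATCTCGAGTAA
mt-Nd6: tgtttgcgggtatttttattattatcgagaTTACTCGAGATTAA

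A second kind of sharing bears on 6 of the mRNAs far more. On the minus strand of chromosome 1 in GRCm38, within chr1:24611535-24616197, neighbouring annotated unprocessed pseudogenes match mt-Co1, mt-Co2, mt-Atp6, mt-Co3, mt-Nd3, mt-Nd4l and mt-Nd4 at 99% identity or more. The first 6 of these have a copy with values, described next. Gm28661 at 24614885 to 24615565 matched 681 of the 684 bases of mt-Co2 without a mismatch, and Gm28437 at 24613189 to 24613971 matched 783 of the 784 bases of mt-Co3. Gm10925 at 24613974 to 24614651 matched 678 of the 681 bases of mt-Atp6, and Gm10222 at 24612407 to 24612700 matched 294 of the 297 bases of mt-Nd4l. Gm29216 at 24615706 to 24616197 and Gm28438 at 24612775 to 24613119 each had 1 mismatch, to mt-Co1 and to mt-Nd3. The stretches in which a copy and its gene differ as annotated are shown next. Capitals mark the mismatched base or, in mt-Co2, the 3 final bases, which lie past the annotated end of the copy. The bases that follow that end on chromosome 1 were not examined. Counted from 1 at the start of the mitochondrial gene, the mismatches are A1066T in Gm29216 and T3C in Gm28438:
mt-Co1: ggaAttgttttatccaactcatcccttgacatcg
Gm29216: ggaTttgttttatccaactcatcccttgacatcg
mt-Nd3: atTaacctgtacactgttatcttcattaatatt
Gm28438: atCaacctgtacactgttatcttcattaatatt
mt-Co2: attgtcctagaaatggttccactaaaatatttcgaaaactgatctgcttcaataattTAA
Gm28661: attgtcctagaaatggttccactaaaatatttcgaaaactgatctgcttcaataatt

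The deposited levels of these copies were very high. Gm28661 averaged 9773 FPKM in T2106 and 9146 in T2215, while mt-Co2 itself had medians of 571 and 547. Gm28437 averaged 5649 and 4335 FPKM, Gm10925 averaged 5645 and 3818, and Gm10222 averaged 1382 and 1488. In each experiment the 20 genes with the highest median held 2 members, mt-Co1 and mt-Atp8, and 3 of these copies.

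To sum a copy with its gene, the FPKM of the copy was first multiplied by the length of the copy over that of the gene. This matters most for mt-Co1, of 1545 bases, whose copy Gm29216 has 492. Of the sum of mt-Co2 and its copy, the copy held 90.9 to 99.2% over the 45 libraries. The copy of mt-Co3 held 18.6 to 85.0%, that of mt-Nd4l 39.7 to 82.4%, that of mt-Co1 0.00 to 34.9%, and that of mt-Nd3 0.20 to 17.1%. For mt-Atp6 the experiments differed: the copy held 69.0 to 93.4% in T2106 and 0.00 to 64.0% in T2215. Identical bases cannot show which locus a fragment came from, and no source used here says how the quantification divided such fragments. Each of these mRNAs is therefore reported both as deposited and summed with its copy. Gm28439, at 24611535 to 24612410, matches 876 bases of mt-Nd4 exactly and was listed near 0, with a mean of 1.1e-05 FPKM in each experiment, so mt-Nd4 was left as deposited.

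**Figure D1:**
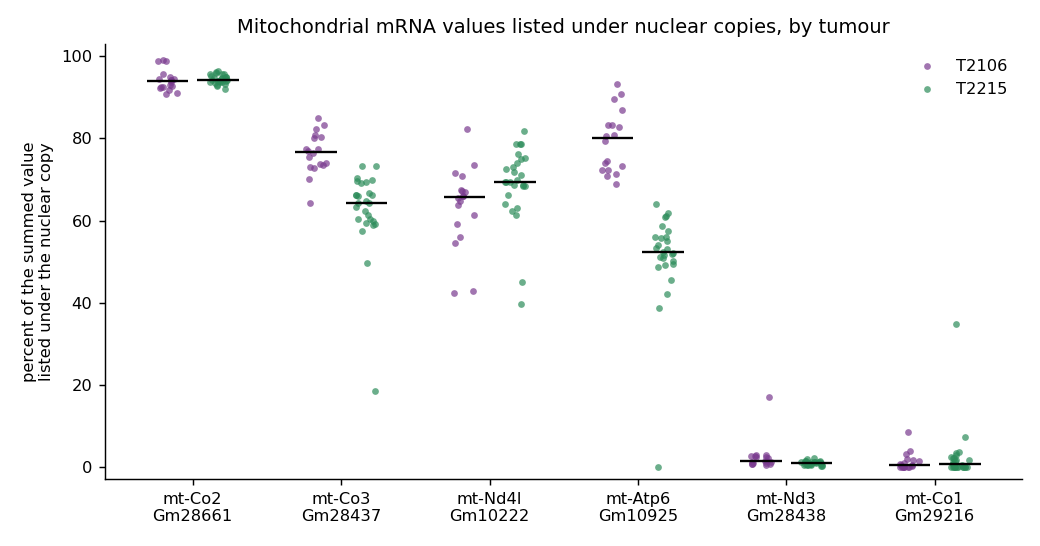
Share of the summed FPKM of a mitochondrial mRNA and its chromosome 1 copy that was listed on the copy, in percent, for 6 mRNAs and each of the 45 libraries (points), with the median of each experiment (lines). In the sum, the FPKM of the copy is weighted by the length of the copy over that of the gene. The copy of mt-Co2 holds 90.9% or more throughout, and T2215 serplulimab replicate 3 is the lowest point for mt-Co3 (18.6%), mt-Atp6 (0.00%) and mt-Nd4l (39.7%) and the highest for mt-Co1 (34.9%).

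One library stood apart on this measure. T2215 serplulimab replicate 3 had 0.12 FPKM on Gm10925 and 7107 on Gm29216, beside 4214 on mt-Co1. Weighted by length, the copies held 0.00% of the sum for mt-Atp6, 18.6% for mt-Co3, 39.7% for mt-Nd4l and 34.9% for mt-Co1. In T2106, mt-Co2 was 137 FPKM in vehicle replicate 2, 151 in HLX53 replicate 2 and 133 in replicate 3 of serplulimab with HLX53 at 5 mg/kg, against 458 to 927 in the other 15 tumours of that experiment. These 4 libraries were singled out after their values were seen, and the counts of members called and the ratios below are also given without them.

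As deposited, mt-Co1, the catalytic core of complex IV, was the most abundant member, with a median of 8641 FPKM in T2106 (6308 to 13484) and 8119 in T2215 (4214 to 10839). mt-Atp8 was next, with medians of 8410 (5685 to 28114) and 6553 (2716 to 11410). The ranges of these genes overlapped widely. Below them in T2106 came mt-Cytb, the only complex III subunit of the mitochondrial genome, at a median of 3162 FPKM, and the complex I subunits mt-Nd1 at 2630 and mt-Nd3 at 2371. mt-Nd4 at 1743, mt-Co3 at 1718, mt-Atp6 at 1346 and mt-Nd2 at 1106 formed the middle of the order, where neighbours overlapped. The lowest mRNAs were mt-Nd5 at 760, mt-Nd4l at 665, mt-Co2 at 571 and mt-Nd6 at 568.

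Summing with the copies changed this order. mt-Co2 moved from near the bottom to the top, with medians of 9772 FPKM in T2106 and 9445 in T2215, and mt-Co3 rose to 7265 and 6860. mt-Atp6, whose deposited medians of 1346 in T2106 and 3383 in T2215 lay far apart, had summed medians of 6597 and 7523. For several of these genes the sums varied less between tumours of a group: the within-group SD on the log2 scale went from 0.92 to 0.26 for mt-Co2 in T2106, from 0.32 to 0.13 for mt-Co3 in T2106, and from 0.40 to 0.31 for mt-Atp6 in T2106. It was larger for the sum of mt-Nd4l in T2215, at 0.63 as deposited and 0.70 summed, and of mt-Co1 in T2106, at 0.23 and 0.24.

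By their medians in FPKM, the rRNAs were below every mRNA, although single tumours overlapped: mt-Rnr1, at 591 FPKM, was above mt-Nd4l, at 293, in replicate 1 of serplulimab with HLX53 at 5 mg/kg. The median of mt-Rnr1 was 280 FPKM in T2106 and 228 in T2215, and that of mt-Rnr2 was 102.8 and 94.0. mt-Rnr1 was above mt-Rnr2 in each of the 45 tumours. The 22 tRNAs, which are 59 to 75 bases long, were listed between 0.000106 and 0.000674 FPKM, with none reaching 0.01 in any library. The highest maxima were those of mt-Tc (0.000674), mt-Ty (0.000668) and mt-Tl1 (0.000628), and the lowest those of mt-Tn (0.000359), mt-Tp (0.000404) and mt-Tg (0.000408). Hence 15 members passed the filter of 0.5 FPKM in at least 3 libraries and were tested in both experiments, and the 22 tRNAs were not.

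**Figure D2:**
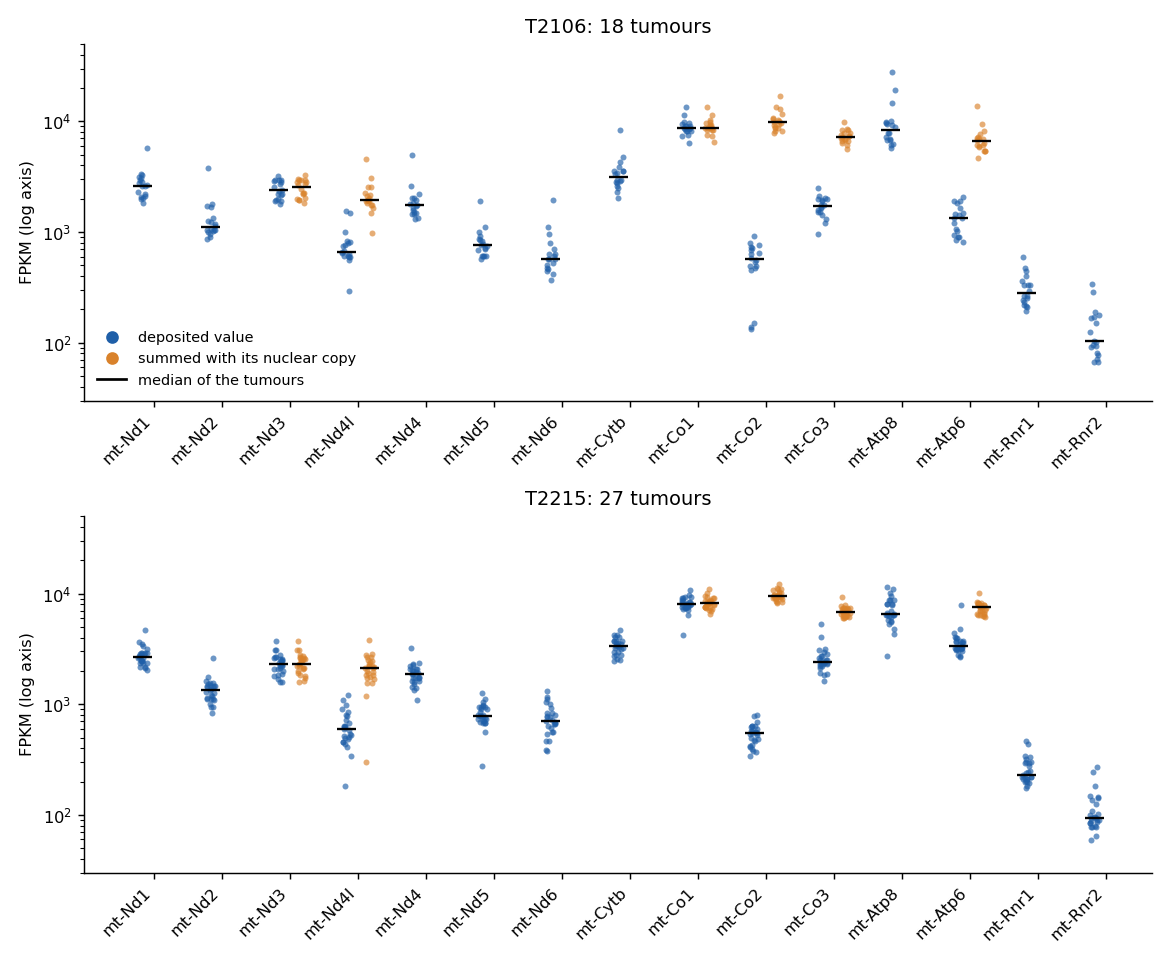
Level of the 13 mRNAs and 2 rRNAs in each tumour, in FPKM on a log axis, by experiment (points, with the median as a line), with 6 mRNAs also shown summed with their chromosome 1 copy. mt-Co1 and mt-Atp8 are the highest as deposited, mt-Co2 is the highest once summed, and mt-Rnr2 is the lowest.

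The members held between 3.64 and 9.37% of the summed FPKM of a library. In T2106 vehicle tumours the share was 5.90, 9.37 and 4.87%, or 6.71% ± 2.36 (SD, n = 3). It was 5.16% ± 1.19 with HLX53, 4.53% ± 0.31 with pembrolizumab and tiragolumab, and 3.96% ± 0.16 with serplulimab. Serplulimab with HLX53 gave 4.13% ± 0.31 at 5 mg/kg and 4.85% ± 0.19 at 10 mg/kg. All 5 treated means lay below the vehicle mean, and the high vehicle value came from replicate 2, which had the highest level of 9 of the 15 members in that experiment.

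In T2215 the groups overlapped. Vehicle tumours had 5.26% ± 0.47, and the other 8 group means ran from 4.45% ± 0.09 with pembrolizumab and tiragolumab to 5.12% ± 1.87 with serplulimab. The serplulimab tumours were the most spread, at 7.23, 4.50 and 3.64%. Replicate 1 of that group had the highest level of 12 of the 15 members, and its skeletal muscle markers summed to 22537 FPKM, against at most 314 in the other 26 tumours; the part of that tissue in its values was not tested. With the copies included at their listed FPKM, not weighted by length, the share ran from 5.68 to 14.5% over the 45 libraries.

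Depth could not be read from FPKM values, which carry no read counts. The libraries had 12918 to 14448 genes at 0.5 FPKM or more, and their FPKM summed to 678636 to 911201. The carcinoma label was checked against 9 epithelial markers: their sum was 107 to 140 FPKM in T2106 vehicle tumours and 66.4 to 101 in T2215 vehicle tumours, with Vil1 below 0.5 FPKM in every tumour and Cdx2 in every T2106 tumour. In T2106 vehicle tumours Epcam, at 0.43 ± 0.36, and Cdh1, at 0.345 ± 0.033 FPKM, averaged below 0.5 (SD, n = 3). Krt8 was at 1.7 ± 1.6 and Krt18 at 10.6 ± 1.4 FPKM in the same tumours. At 10 mg/kg of HLX53 with serplulimab, Epcam was at 8.84 ± 1.19, Cdh1 at 3.58 ± 0.96, Krt8 at 28.4 ± 10.5 and Krt18 at 34.6 ± 8.4. Epcam and Cdh1 were thus nearly absent from the T2106 vehicle tumours, while Krt18 was not. In bulk tissue, fewer cells of a type and less RNA per cell cannot be told apart. The labels do not say that the replicates were separate animals, so the p-values below measure only the spread between these samples.

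Each comparison used limma on log2(FPKM + 0.5) with Benjamini-Hochberg adjustment over all genes tested, 15070 in T2106 and 14914 in T2215, and a threshold of 0.05; differences are on that log2 scale, ± SE. Members passed the test only in T2106, in the tumours given serplulimab with HLX53. With HLX53 at 5 mg/kg, both rRNAs rose and no mRNA passed the test. With HLX53 at 10 mg/kg, mt-Rnr2 and mt-Atp6 rose and mt-Atp8, mt-Cytb and mt-Nd2 fell, but the direction of mt-Atp6 turned when its copy was included. Both comparisons share the same 3 vehicle tumours.

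mt-Rnr1, the RNA of the small ribosomal subunit, was at 242, 330 and 216 FPKM in the vehicle tumours of T2106. In tumours given serplulimab with HLX53 at 5 mg/kg it was 591, 445 and 472, and at 10 mg/kg it was 331, 398 and 358. Every combination tumour lay above every vehicle tumour, although at 10 mg/kg the lowest value exceeded the highest vehicle value by little. The difference from vehicle was +0.95 ± 0.19 at 5 mg/kg (limma, Benjamini-Hochberg adjusted p = 0.0431) and +0.48 ± 0.19 at 10 mg/kg (limma, adjusted p = 0.0512).

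mt-Rnr2, the RNA of the large ribosomal subunit, was at 76.7, 124 and 70.9 FPKM in the vehicle tumours. At 5 mg/kg of HLX53 it was 342, 289 and 191, and at 10 mg/kg it was 169, 168 and 176. The groups did not overlap. It rose by +1.60 ± 0.27 at 5 mg/kg (limma, adjusted p = 0.0193) and by +0.96 ± 0.27 at 10 mg/kg (limma, adjusted p = 0.0162). The ratio of mt-Rnr2 to mt-Rnr1 was 0.340 ± 0.030 in vehicle tumours, 0.544 ± 0.126 at 5 mg/kg and 0.475 ± 0.046 at 10 mg/kg (SD, n = 3 each).

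At 5 mg/kg these were the 2 members called among 15, where 154 of the 15070 genes, or 1.02%, were called. The count was also 2 without vehicle replicate 2 or combination replicate 1, where 0.0998% and 5.95% of all genes were called, rose to 9 without combination replicate 3, where 40.6% of all genes were called, and was 0 without vehicle replicate 1, vehicle replicate 3 or combination replicate 2, where 0.0798 to 0.140% were. In these last 3 refits mt-Rnr2 stood at +1.503, +1.447 and +1.539 and mt-Rnr1 at +0.90, +0.82 and +1.03, with limma adjusted p-values of 0.0664 to 0.0904 and 0.0882 to 0.122.

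No mRNA of the 5 mg/kg group passed the test as deposited; 11 of the 13 had differences below 0, and mt-Co2 and mt-Atp6 had differences of +0.12 and +0.10. mt-Cytb was at 2320, 2042 and 3583 FPKM against 4306, 8399 and 3846 in vehicle tumours, a difference of -1.01 (limma, adjusted p = 0.0782). The 3 tumours of the group lay below all 3 vehicle tumours. The complex I mRNA mt-Nd5 differed by -0.89 (limma, adjusted p = 0.0718) and mt-Nd4l by -1.09 (limma, adjusted p = 0.0813).

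mt-Nd4l summed with Gm10222 was 1658, 1484 and 973 FPKM, against 3048, 4546 and 2546 in vehicle tumours. The sum fell by 1.29 ± 0.23 (limma, adjusted p = 0.0259), and the share of all genes called in that fit was again 1.02%. With all libraries, mt-Nd4l was called only as this sum. Its copy Gm10222 alone differed by -1.53 ± 0.31 (limma, adjusted p = 0.0460). As deposited, mt-Nd4l was called without combination replicate 3, at -1.21 (limma, adjusted p = 0.0264). mt-Atp8 differed by -1.03 (limma, adjusted p = 0.120), and the summed mt-Co2 by -0.38, against +0.12 ± 0.69 as deposited. Over the 15 members the median difference was -0.53, with 4 above 0, beside a median of -0.08 over all genes tested.

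**Figure D3:**
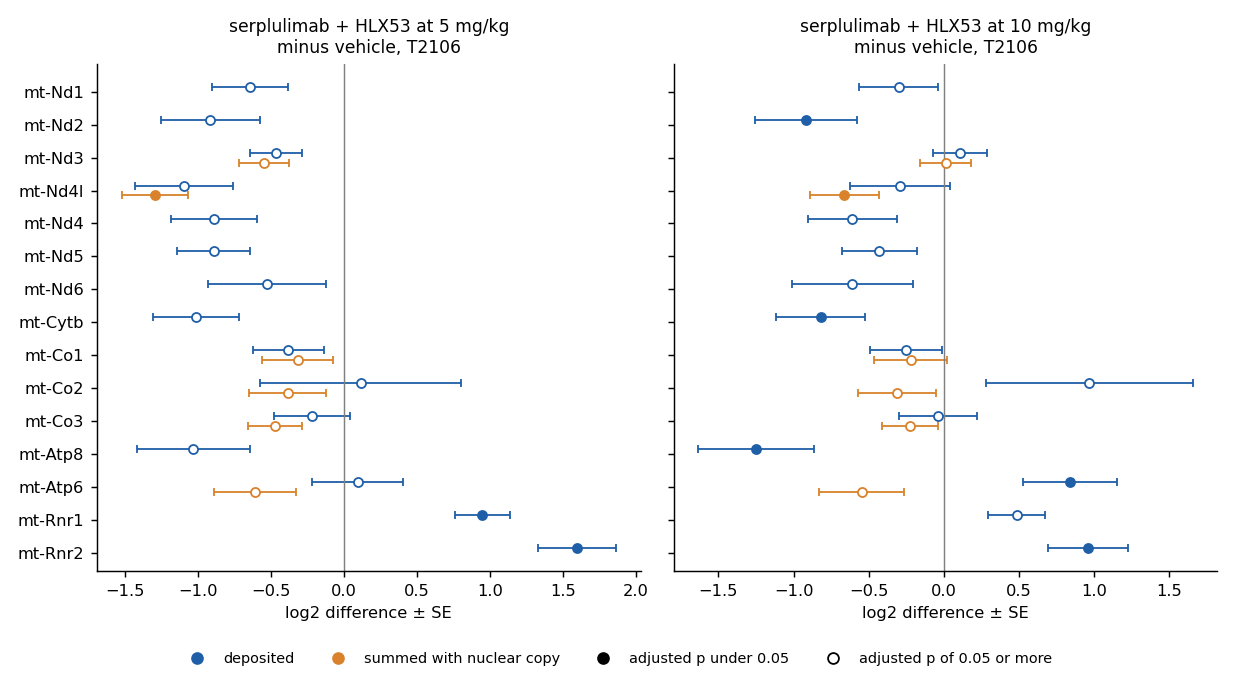
Difference from vehicle in T2106 for each of the 15 tested members, log2(FPKM + 0.5) with SE bars, for serplulimab with HLX53 at 5 and at 10 mg/kg, as deposited and, for the mRNAs with a copy, summed; filled points passed the threshold. The rRNAs lie above 0 in both, mt-Rnr2 at +1.60 and +0.96, and mt-Atp6 moves from +0.84 to -0.55 at 10 mg/kg when its copy is added.

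At 10 mg/kg, 5 members were called of 15, where 6633 of 15070 genes, or 44.0%, were called, so the share of members called was below that of all genes. mt-Atp8, the short complex V subunit, was at 14563, 28114 and 9443 FPKM in vehicle tumours and at 6893, 6846 and 6114 with the combination. The groups did not overlap, and mt-Atp8 fell by 1.25 ± 0.39 (limma, adjusted p = 0.0226). The 5 mg/kg tumours, at 7853, 5685 and 10156 FPKM, overlapped the vehicle range.

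mt-Cytb was at 2518, 3522 and 2847 FPKM at 10 mg/kg, below the 3 vehicle tumours given above, and fell by 0.82 ± 0.30 (limma, adjusted p = 0.0387). mt-Nd2, a complex I membrane subunit, was at 1717, 3801 and 1334 FPKM in vehicle tumours and at 1022, 1224 and 1035 with the combination. It fell by 0.92 ± 0.34 (limma, adjusted p = 0.0414). For all 3 genes vehicle replicate 2 was far above the other vehicle tumours. Without that replicate the differences were -0.83 for mt-Atp8, -0.47 for mt-Cytb and -0.47 for mt-Nd2 (limma, adjusted p = 0.0860, 0.161 and 0.184), and 2 members were called, mt-Rnr2, and mt-Rnr1, which gained its call at +0.66 (limma, adjusted p = 0.0339), where 25.2% of all genes were called.

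Other single libraries also carried these calls. No member was called without vehicle replicate 1, where mt-Rnr2 stood at +0.87 and mt-Atp8 at -1.30, nor without combination replicate 1, where they stood at +0.97 and -1.28. The same held without combination replicate 3, where they stood at +0.94 and -1.19. Of all genes, 21.4%, 2.36% and 5.86% were called in these refits. Over the 6 refits that leave out 1 library, mt-Rnr2 ran from +0.81 to +1.21 (limma, adjusted p from 0.0221 to 0.0634), and mt-Atp8, mt-Cytb and mt-Nd2 stayed below 0 in each. Without vehicle replicate 3 mt-Rnr2 was the member that lost its call, at +0.81 (limma, adjusted p = 0.0529).

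mt-Atp6, the proton channel subunit of complex V, was at 813, 910 and 1350 FPKM in vehicle tumours and at 1456, 2082 and 1887 at 10 mg/kg, without overlap. As deposited it rose by +0.84 ± 0.31 (limma, adjusted p = 0.0429). Its copy Gm10925 moved the other way, from 6951, 12837 and 5669 FPKM to 4009, 5088 and 4226, and fell by 0.85 ± 0.33 (limma, adjusted p = 0.0485). The sum of both was 7733, 13690 and 6995 FPKM in vehicle tumours and 5447, 7148 and 6094 with the combination, which overlap. Its difference was -0.55 ± 0.28 (limma, adjusted p = 0.116). The deposited call was also lost in 5 of the 6 refits that leave out 1 library, where it ran from +0.69 to +1.06, all but that without vehicle replicate 3.

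Counting sums, 1 member rose at 10 mg/kg and 4 fell, again where 44.0% of all genes were called. The added call was mt-Nd4l, at 1933 to 2179 FPKM summed, which fell by 0.66 ± 0.23 (limma, adjusted p = 0.0329). As deposited its difference was -0.29, and its copy Gm10222 alone differed by -0.87 ± 0.31 (limma, adjusted p = 0.0384). mt-Co2 showed the same turn without a call, at +0.97 ± 0.69 as deposited and -0.31 summed, with sums of 11620, 16780 and 10114 FPKM in vehicle tumours and 9527, 10361 and 10435 with the combination. The remaining complex I and IV mRNAs, mt-Nd1, mt-Nd3, mt-Nd4, mt-Nd5, mt-Nd6, mt-Co1 and mt-Co3, had differences between -0.61 and +0.11 with none called.

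The 2 scaling alternatives moved calls at 10 mg/kg. Centring each library on its median gave 4 calls, 1 higher and 3 lower, where 6780 of 15070 genes were called, and mt-Atp6 lost its call. Rescaling the libraries without the members gave 5, 3 higher and 2 lower, where 41.3% of genes were called, with mt-Rnr1 gained at +0.59 (limma, adjusted p = 0.0315) and mt-Nd2 lost at -0.81 (limma, adjusted p = 0.0509). Without the 4 libraries that stood apart, 6 members were called at 10 mg/kg, where 44.6% of all genes were called, among them mt-Rnr2 at +1.21 and mt-Rnr1 at +0.66. At 5 mg/kg 8 members were called, where 18.4% of all genes were called: both rRNAs rose and 6 mRNAs fell, mt-Nd4l, mt-Nd5, mt-Nd4, mt-Nd2, mt-Cytb and mt-Atp8.

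Between the doses, no member was called. The difference of the 10 mg/kg group from the 5 mg/kg group had its smallest adjusted p at mt-Nd3, at +0.57 ± 0.18 (limma, adjusted p = 0.293), where 0.139% of genes were called. An unadjusted p under 0.05 was found for 5 members and for 1653 of 15070 genes. Without 5 mg/kg replicate 2, mt-Nd4l at +1.04 and mt-Nd3 at +0.65 were called (limma, adjusted p = 0.0346 and 0.0212), where 38.4% of all genes were called.

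A ratio within a library does not depend on how the library was scaled. Between rRNAs and mRNAs it still depends on how well each kind was recovered, which FPKM do not show. The 2 rRNAs were set against 6 mRNAs with no chromosome 1 copy or, for mt-Nd4, a copy listed near 0 (mt-Nd1, mt-Nd2, mt-Atp8, mt-Nd4, mt-Nd5 and mt-Cytb) as a log2 ratio: the mean log2 FPKM of the rRNAs minus the mean log2 FPKM of the mRNAs. In T2106 vehicle tumours it was -4.57 ± 0.30 (SD, n = 3). It was -2.39 ± 0.59 with HLX53 at 5 mg/kg, from tumours at -1.94, -2.17 and -3.06, and -3.12 ± 0.06 at 10 mg/kg, from tumours at -3.10, -3.19 and -3.07. Serplulimab alone gave -3.43 ± 0.33, HLX53 alone -4.03 ± 0.23, and pembrolizumab with tiragolumab -3.99 ± 0.19. All 5 treated means lay above the vehicle mean; these are descriptions, with no test. Without the libraries that stood apart, the mean was -4.40 in vehicle tumours, -3.91 with HLX53 alone and -2.06 at 5 mg/kg (n = 2 each).

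**Figure D4:**
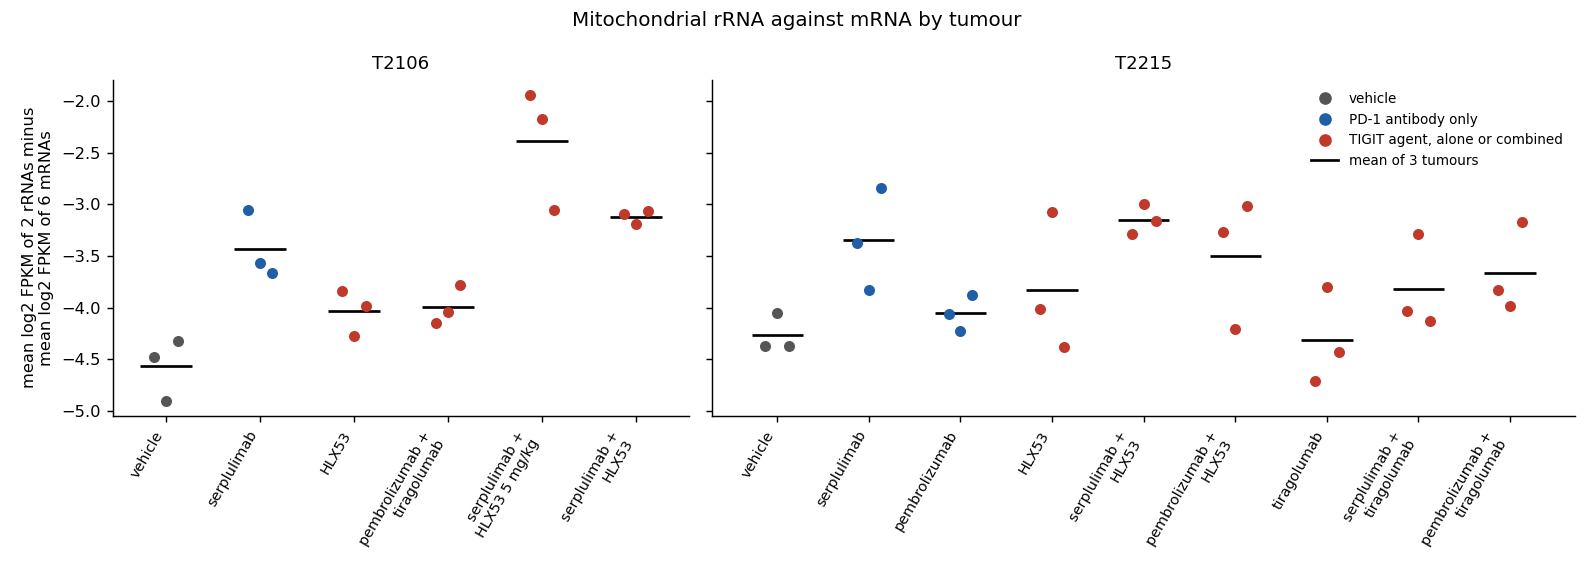
Mean log2 FPKM of the 2 rRNAs minus that of 6 mRNAs with no chromosome 1 copy or, for mt-Nd4, a copy listed near 0, for each tumour (points) by group and experiment, with the group mean (lines). The T2106 mean is -4.57 in vehicle tumours and -2.39 and -3.12 in the serplulimab with HLX53 groups, and the T2215 mean is -4.27 in vehicle tumours and -3.15 with the combination.

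The ratio in T2215 vehicle tumours was -4.37, -4.05 and -4.38. Serplulimab with HLX53 at 10 mg/kg gave the highest group mean of that experiment, -3.15 ± 0.15 (SD, n = 3), followed by serplulimab alone at -3.35 ± 0.49 (-3.60 without replicate 3, n = 2) and pembrolizumab with HLX53 at -3.50 ± 0.63. Tiragolumab alone, at -4.31 ± 0.47, was the only treated mean below vehicle.

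Other genes moved with the 10 mg/kg result, where 44.0% of all genes were called. Marker genes of cell types other than the tumour cells were higher with serplulimab and HLX53 at 10 mg/kg than in vehicle tumours: 10 of 10 adipocyte markers tested rose (median +3.75), as did 8 of 8 fibroblast markers (+3.69), 10 of 10 macrophage and neutrophil markers (+2.44), 4 of 5 keratinocyte markers (+1.93), 2 of 10 T cell markers (+1.25) and 2 of 7 skeletal muscle markers (+0.03). None of 5 erythrocyte markers passed. For T cell, skeletal muscle and erythrocyte markers the share called lay below that of all genes. Of 7 carcinoma markers 5 rose and 1 fell, and of 16 cell cycle genes 15 fell (median -1.01). Of 14 immediate early and heat shock genes 5 rose and 2 fell, a share near that of all genes.

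Summed adipocyte markers were 79.2 to 411 FPKM in vehicle tumours and 1726 to 1964 at 10 mg/kg, with Cidea and Ucp1 below 0.5 FPKM. Summed fibroblast markers were 421 to 659 and 3260 to 4970 FPKM, and summed macrophage and neutrophil markers were 278 to 355 and 1123 to 2326. Their part in the mitochondrial values was not tested. At 5 mg/kg, adipocyte markers summed to 321, 1948 and 88.4 FPKM in replicates 1, 2 and 3, fibroblast markers to 1122, 6855 and 603, and macrophage and neutrophil markers to 796, 3320 and 517. These sums were highest in replicate 2 and lowest in replicate 3; mt-Rnr1 and mt-Rnr2 were highest in replicate 1, and mt-Rnr2 was lowest in replicate 3. In that group 3 of 10 macrophage and neutrophil markers and 2 of 14 immediate early and heat shock genes rose, and no gene of the other marker lists passed. Of all genes, 1.02% were called there.

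Among the nuclear partners of the mitochondrial mRNAs, no gene was called lower in the same comparison. At 10 mg/kg, 8 of 74 nuclear genes for complexes I to V rose and none fell, a smaller share than the 44.0% of all genes called, with a median of +0.10 beside -0.04 over all genes. Of 36 complex I genes 4 rose, among them Ndufc1 by +0.78 ± 0.20, Ndufb6 by +0.73 ± 0.22 and Ndufb5 by +0.42 ± 0.15, all accessory subunits (limma, adjusted p = 0.0133, 0.0209 and 0.0418). Sdhb, the iron-sulfur subunit of complex II, rose from 84.8 ± 3.8 to 124 ± 18 FPKM (SD, n = 3 each, as for the levels of other nuclear genes here), the single call among 4 genes of that complex (limma, adjusted p = 0.0127).

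Of 9 complex III genes 2 rose, Uqcrfs1, the Rieske iron-sulfur protein, by +0.64 ± 0.21, and Uqcrc2 by +0.26 ± 0.10 (limma, adjusted p = 0.0286 and 0.0429). Cox5a, which binds the core of complex IV, rose from 219 ± 31 to 333 ± 32 FPKM, the single call among 10 (limma, adjusted p = 0.0165). None of 15 complex V genes was called. At 5 mg/kg none of the 74 was called and their median was +0.02.

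The nuclear genes that transcribe, replicate and process mitochondrial RNA and DNA were examined at 10 mg/kg as well. Of 12 transcription and replication genes 6 fell and none rose, a share near the 44.0% of all genes called. Tfam, which packages mitochondrial DNA and starts its transcription, fell from 28.3 ± 4.9 to 17.4 ± 3.0 FPKM, or by 0.69 ± 0.22 (limma, adjusted p = 0.0255). Mgme1, a mitochondrial exonuclease, fell by 0.60 ± 0.18 and Mterf2, of the mitochondrial termination factor family, by 0.70 ± 0.21 (limma, adjusted p = 0.0204 and 0.0206). Polrmt, the mitochondrial RNA polymerase, differed by -0.21 ± 0.23 (limma, adjusted p = 0.464).

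Of 23 RNA processing and stability genes, 1 rose and 4 fell, again a smaller share than that of all genes. Pnpt1, a polynucleotide phosphorylase, fell by 0.59 ± 0.21, Fastkd5 by 0.63 and Fastkd1 by 0.47, the last 2 being RNA-binding proteins, and Nsun3, a tRNA methyltransferase, rose by +0.37 (limma, adjusted p = 0.0347, 0.0345, 0.0284 and 0.0243). Lrpprc, which stabilises mitochondrial mRNAs, differed by -0.19 and Elac2, which cuts tRNA 3′ ends, by -0.22, neither past the threshold (limma, adjusted p = 0.334 and 0.208). Of 7 biogenesis regulators 3 rose and 3 fell, beside 44.0% of all genes called. Among them Pparg differed by +2.63 ± 0.52, Esrra by +0.79 ± 0.18 and Gabpa by -0.55 ± 0.16 (limma, adjusted p = 0.0086, 0.0110 and 0.0174). Pparg is also the master regulator of fat cells, whose markers rose in the same tumours. Ppargc1a stayed below the filter and was not tested.

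At 5 mg/kg, where the rRNAs rose most, none of these processing and transcription genes was called. Tfam differed by -0.20 and Pnpt1 by -0.58 (limma, adjusted p = 0.526 and 0.109).

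No member was called in the other 3 comparisons of T2106. Serplulimab alone had 9 members with an unadjusted p under 0.05, as had 8.49% of all genes, and a smallest limma adjusted p of 0.471, where 0% of genes were called. Its largest difference was -1.22 for mt-Atp8, followed by mt-Nd2 and mt-Nd6, the latter at -0.995, and the median over members was -0.70 beside -0.02 over all genes. The 3 vehicle tumours are again shared by all these comparisons. Pembrolizumab with tiragolumab had 7 members at an unadjusted p under 0.05, as had 5.14% of all genes, and a median of -0.63, with 0% of genes called. HLX53 alone had none, beside 3.86% of all genes, and a median of -0.27, with 0.00664% of genes called.

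In T2215 no member was called against vehicle in any of the 8 treated groups. The share of all genes called was 0% for serplulimab, pembrolizumab, HLX53, tiragolumab, serplulimab with HLX53 and serplulimab with tiragolumab, 0.00671% for pembrolizumab with HLX53 and 0.0134% for pembrolizumab with tiragolumab. Member medians lay between -0.26 and +0.10. The smallest adjusted p-values were those of mt-Nd6 with pembrolizumab and tiragolumab (-1.19 ± 0.23, limma, adjusted p = 0.201) and of mt-Rnr1 with serplulimab and HLX53.

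mt-Rnr1 was at 199, 245 and 181 FPKM in T2215 vehicle tumours and at 320, 438 and 338 with serplulimab and HLX53. The groups did not overlap, as in T2106, and the difference was +0.80 ± 0.21 (limma, adjusted p = 0.239). mt-Rnr2 was at 89.1, 102 and 64.4 FPKM in vehicle tumours and at 124, 242 and 137 with the combination, a difference of +0.93 ± 0.37 (limma, adjusted p = 0.244). The same differences in T2106 were +0.48 for mt-Rnr1 and +0.96 for mt-Rnr2, and neither passed in T2215.

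Serplulimab alone gave mt-Rnr1 at 469, 239 and 335 FPKM, a difference of +0.69 ± 0.21 (limma, adjusted p = 0.387), with the highest value in the library rich in muscle markers. Without replicate 2 of this group mt-Rnr1 was called at +0.94 and mt-Atp6 at +0.76 (limma, adjusted p = 0.0192 and 0.0346), where 9.45% of all genes were called. That left replicate 1 and replicate 3, in which 0.00% of mt-Atp6 was listed on its copy.

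Classes of agents could be compared across the 9 groups of T2215. Groups with HLX53 against those with tiragolumab gave +0.36 ± 0.12 for mt-Rnr1 and +0.49 for mt-Rnr2 (limma, adjusted p = 0.155 and 0.167; 0% of genes called). Groups with serplulimab against those with pembrolizumab gave no call (smallest adjusted p 0.504 by limma, 0% of genes called). The pair serplulimab with HLX53 against pembrolizumab with tiragolumab gave none either, with mt-Nd6 at +0.77 (limma, adjusted p = 0.222; 0.0134% of genes called). Groups with a PD-1 antibody against those without gave +0.35 ± 0.11 for mt-Rnr1 (limma, adjusted p = 0.666; 0% of genes called).

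mt-Nd6, the mRNA of the opposite strand, came nearest to the threshold in T2215. Without a TIGIT agent it was at 1047, 1119 and 825 FPKM in vehicle tumours, 1324, 773 and 1157 with serplulimab, and 915, 837 and 803 with pembrolizumab. With a TIGIT agent alone it was 728, 640 and 789 under HLX53 and 706, 539 and 770 under tiragolumab. Serplulimab gave 615, 997 and 657 when joined with HLX53 and 678, 558 and 565 when joined with tiragolumab. For pembrolizumab the values were 667, 692 and 388 with HLX53 and 375, 470 and 464 with tiragolumab.

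The 9 tumours without a TIGIT agent had a median of 915 FPKM (773 to 1324) and the 18 with one a median of 648 (375 to 997). Of these 18, 16 lay below all 9 of the others. As deposited, that count was 10 for mt-Nd2 and mt-Co3, 8 for mt-Nd1, 6 for mt-Atp6, 2 for mt-Nd3 and 1 for each rRNA. It was 0 for mt-Co1, mt-Co2, mt-Atp8, mt-Nd4l, mt-Nd4, mt-Nd5 and mt-Cytb. The count was not taken for genes outside the members, so how common such a separation was among all genes is not known. The difference of mt-Nd6 was -0.66 ± 0.11 (limma, adjusted p = 0.0555), so mt-Nd6 was not called, where 2 of 14914 genes, or 0.0134%, were called. It passed when each library was centred on its median (-0.69, limma, adjusted p = 0.0381). Leaving out 1 library brought it past the threshold in 5 of 27 refits, between an adjusted p of 0.0167 without serplulimab replicate 2 and 0.0493 without pembrolizumab with HLX53 replicate 1; the other 3 were those without serplulimab with HLX53 replicate 2 (0.0193) and without replicate 2 or 3 of pembrolizumab with HLX53 (0.0428 and 0.0430). Over all 27 the difference ran from -0.73 to -0.60. Without the library that stood apart in this experiment it was -0.64 (limma, adjusted p = 0.224).

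**Figure D5:**
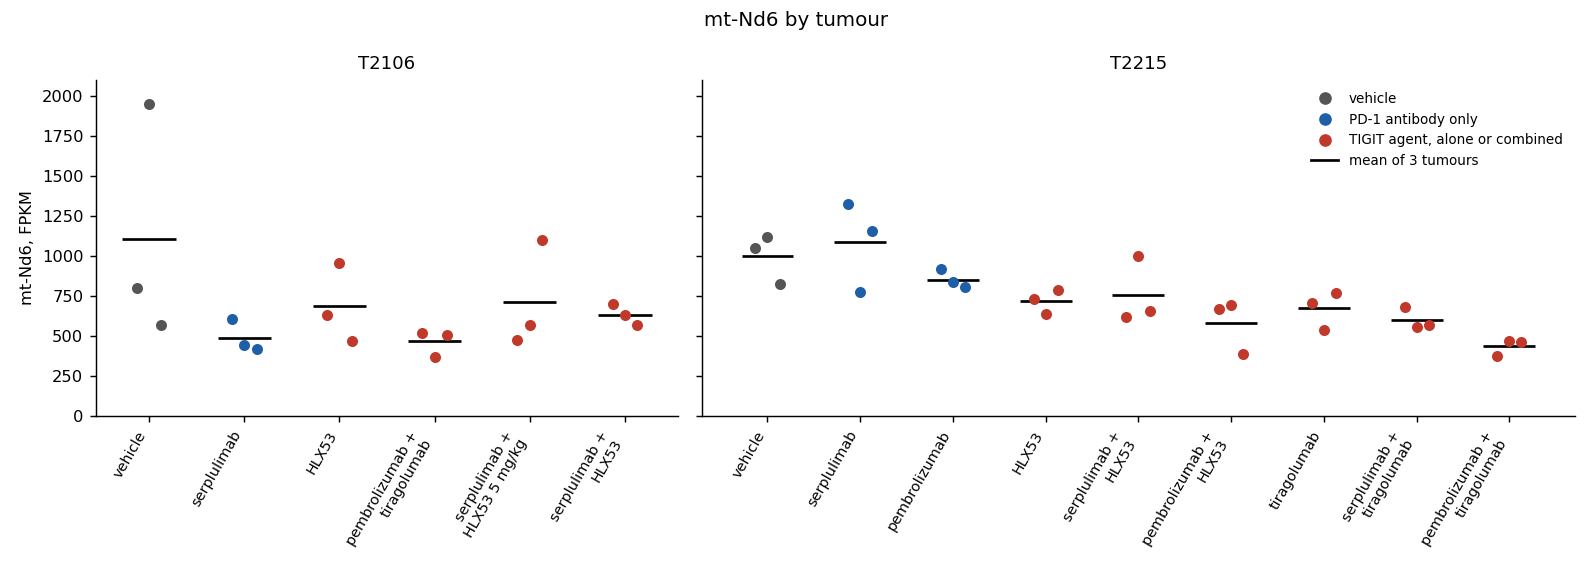
Level of mt-Nd6 in each tumour of T2215 and T2106, in FPKM, by group, with the group mean. In T2215 the tumours without a TIGIT agent lie between 773 and 1324 FPKM and those with one between 375 and 997; in T2106 the vehicle tumours spread from 567 to 1947.

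Set against the same 6 mRNAs in the same library, mt-Nd6 had a log2 ratio (its log2 FPKM minus their mean log2 FPKM) of -1.29 ± 0.40 (SD, n = 9; -1.49 to -0.25) without a TIGIT agent and -1.81 ± 0.27 (n = 18; -2.33 to -1.39) with one, ranges that overlap. Without serplulimab replicate 3, the highest of the former at -0.25, they had -1.42 ± 0.09 (n = 8; -1.49 to -1.23). No gene of the marker lists, of the 74 nuclear genes or of the mitochondrial gene lists was called in that comparison. All 14 skeletal muscle markers tested had values below 0 (median -0.88), as did 71 of the 74 nuclear genes (median -0.09), and their part in the mt-Nd6 values was not tested. The counting is not stated to use strand. Without strand, a read from any part of mt-Nd6 could come from RNA of either strand, and this was not tested. Reads from the 14 base pairs shared with mt-Nd5 would then fit both genes.

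T2106 did not show the same separation. mt-Nd6 was at 802, 1947 and 567 FPKM in vehicle tumours, or 1105 ± 738 (SD, n = 3). It was 685 ± 248 with HLX53, 465 ± 85 with pembrolizumab and tiragolumab, and 488 ± 101 with serplulimab, which is no TIGIT agent. No difference in mt-Nd6 was called in T2106.

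The 4 treatments that both experiments held were compared as the difference between their differences from vehicle, on the 14646 genes tested in both. No member was called in any of the 4, where 0% of all genes were called. The smallest limma adjusted p was 0.840 for serplulimab, 0.714 for serplulimab with HLX53, and above 0.999 for the other two. With serplulimab, 14 of 15 members had a higher difference in T2215 than in T2106 (median +0.70) and 8 had an unadjusted p under 0.05, as had 5.67% of all genes. A difference between the experiments is therefore not shown for any member, and the absence of a call does not show that they respond alike.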

How the data were processed

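RNA of 45 tumours in 2 experiments was sequenced as 150-base reads. The deposited values are log2 FPKM per gene, given to 3 decimals, 1 table per experiment; per the submitters' processing notes, FastQC, Trimmomatic, STAR and Bowtie were used, with builds mm10, hg19 and GRCh37. No source used here names the program behind the FPKM values or its treatment of reads that fit several genes. The tables were normalised separately, so levels were tested only within a table.

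Values were returned to FPKM. Genes at 0.5 FPKM or more in at least 3 libraries of an experiment were tested with limma 3.58.1 in R 4.3.3 on log2(FPKM + 0.5), all groups in 1 fit with a trended prior, for 23 comparisons, with Benjamini-Hochberg adjustment. The script was tested on simulated data. Members are all symbols beginning with mt-; the mRNAs and rRNAs were named, the tRNAs only as the 3 highest and lowest, and from each of 18 lists up to 3 genes past the threshold, with Polrmt, Tfam, Lrpprc, Elac2, Pnpt1 and Ppargc1a always. The lists hold 234 genes, of which 8 symbols had no row. The lists are nuclear subunits of complexes I to V, mitochondrial transcription and replication, RNA processing and biogenesis regulators, 8 sets of cell type markers, cell cycle, and immediate early and heat shock genes. Against vehicle or between classes, no list gene was called outside the comparisons of serplulimab with HLX53 in T2106. Between the doses, 1 carcinoma and 4 keratinocyte markers were higher at 10 mg/kg, where 0.139% of all genes were called. Members and lists were chosen with earlier results of these data known.

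Positions and sequences come from the GRCm38 annotation and transcripts of GENCODE M21. Nuclear copies were found with blastn 2.17.0 (90% identity over 100 bases or more, 16 nuclear genes found). The 6 at 99% identity with high values were summed with their mitochondrial gene, weighted by the length of the copy over that of the gene. Groups follow the labels; no sample was left out. Alternatives were other pseudocounts, no filter, 2 scalings, summing with copies, smaller fits, a replicate block and leaving out libraries.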

Additional observations from a re-analysis of the deposited data

How the results depend on the processing

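The counts of members past the threshold were recomputed under other settings. For the T2106 combination holding HLX53 at 5 mg/kg, compared with vehicle, the count of 2 became 0 with no filter on low values and 0 when only the 2 groups were fitted. It became 8 without the 4 libraries that stood apart, also when members were summed with copies. Of all genes, 0.0733%, 0% and 18.4% were called in these fits. At 10 mg/kg the count of 5 became 0 with no filter, when 3471 of 47729 genes were called in all. It became 2 when only the 2 groups were fitted, where 51.3% of all genes were called. The count for any TIGIT agent against none went from 0 to 1 with each library centred on its median, the gene being mt-Nd6, where 0.0201% of all genes were called. The causes were not tested.

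Leaving out 1 library gave 0 to 9 members at 5 mg/kg, 0 to 4 at 10 mg/kg, 0 to 2 between the doses, 0 to 2 for T2215 serplulimab and 0 to 1 for any TIGIT agent. The share of all genes called ran from 0.0798 to 40.6% at 5 mg/kg and from 2.36 to 49.0% at 10 mg/kg. It ran from 0 to 38.4% between the doses, 0 to 9.45% for T2215 serplulimab and 0 to 0.0403% for any TIGIT agent. In the 2 comparisons with a member called, 8 of 12 such refits moved the count by more than 1.5 times; of 216 refits of comparisons with none called, 7 gave a call. At 10 mg/kg, mt-Atp6 turned from +0.84 to -0.55 when summed with its copy and to -0.25 when the 4 libraries were also left out, and mt-Nd4l went from -0.29 to +0.018 without vehicle replicate 2 or the 4 libraries; leaving out 1 library each, it ran from -0.45 to +0.018.

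The labels do not say that replicate numbers pair the samples. Correlations of same-numbered tumours ranged from -0.683 to 0.624 in T2106 and from -0.739 to 0.723 in T2215. Their medians were -0.026 and -0.039, beside -0.009 and 0.012 for tumours with other numbers, which cannot exclude a pairing. With a replicate block the counts were 1 at 5 mg/kg, mt-Rnr2, where 0.259% of all genes were called, and 3 at 10 mg/kg, where 38.2% were. Of the share of summed FPKM held by the members, the 15 group values rose when copies were counted. FPKM carry no depth, so no counting error could be given for any value.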
